A study of Mus musculus with 8 samples.

Results

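Mesothelial marker genes were measured in 2 populations of mouse liver duct cells, and 10 of the 20377 gene symbols in the count tables are described here: Msln, Upk3b, Upk1b, Lrrn4, Wt1, Bnc1, Aldh1a2, Nkain4, Gpm6a and Efemp1. They are known markers of mesothelium, and they were selected on earlier results of the same ST14high against ST14low contrast, including those in which the expected marker showed little difference. Their differences between the populations are therefore given as a description, with no test. All 10 had reads in every library, and all 10 passed the low-count filter.

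The cells came from wild type C57BL/6 mice. Liver cells other than hepatocytes were stained and sorted for binding of MIC1-1C3, an antibody to duct cells, for absence of CD26 and for absence of blood cell markers, and were then divided by surface ST14 (matriptase, an epithelial membrane protease) into ST14high and ST14low. Each population has 4 libraries of RNA from freshly sorted cells, numbered as replicates 1 to 4. The labels do not say whether these came from separate animals, so a p-value covers no more than the variation among these 8 libraries, part of which may be technical. With 1 transcript kept per gene, the shallowest library, ST14low replicate 3, held 6398306 counts, and the deepest, ST14high replicate 3, held 42769979.

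The mesothelium is the thin epithelial sheet that covers the liver and lines the body cavities. Its cells carry keratins like other epithelia and also express genes of mesenchyme. It arises from mesoderm under the control of the transcription factor Wt1, and in the developing liver it gives rise to stellate cells and fibroblasts. Duct cells, in contrast, arise from the endodermal liver bud, and Wt1 and Msln are not among their usual markers.

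Of the 10 genes, 8 lay higher in every ST14high library than in any ST14low library: Msln, Upk3b, Upk1b, Lrrn4, Wt1, Bnc1, Aldh1a2 and Nkain4. Their mean levels were 3.84 to 14.8 times as high in ST14high, and ST14high replicate 1 held the highest level of each. Without that library the ratios were 2.60 to 7.15, and the same 8 genes still did not overlap between populations. Gpm6a and Efemp1 were the exceptions. They were the most abundant of the 10 by mean level, scaled for library size, over all 8 libraries, their populations overlapped, and their means were 1.13 and 1.30 times as high in ST14high. Over all 13749 genes tested, 4.09% lay higher in every ST14high library than in any ST14low library, and 6.74% when ST14high replicate 1 was left out. These shares are printed for orientation only, since the genes were chosen with this contrast known.

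RefSeq promoter windows (build GRCm38.p6), which run from 250 bases before to 50 bases after the gene's start, were matched by symbol for 6 of the 10 genes: Upk3b, Lrrn4, Bnc1, Aldh1a2, Gpm6a and Efemp1. Upk3b and Lrrn4 are printed as genes that lay higher in ST14high and hold a motif searched for, and Gpm6a as the gene closest to equal. Capitals mark GGAATG or its reverse complement CATTCC, the core recognised by TEAD transcription factors. The Upk3b window is chr5:136038246-136038545 on the plus strand, the Lrrn4 window chr2:132880813-132881112 on the minus strand, and the Gpm6a window chr8:54954478-54954777 on the plus strand.
Upk3b: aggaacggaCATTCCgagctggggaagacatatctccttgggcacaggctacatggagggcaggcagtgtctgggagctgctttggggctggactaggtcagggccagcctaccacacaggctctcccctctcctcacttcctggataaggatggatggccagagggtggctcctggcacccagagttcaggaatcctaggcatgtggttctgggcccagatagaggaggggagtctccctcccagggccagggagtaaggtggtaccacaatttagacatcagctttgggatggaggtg
Lrrn4: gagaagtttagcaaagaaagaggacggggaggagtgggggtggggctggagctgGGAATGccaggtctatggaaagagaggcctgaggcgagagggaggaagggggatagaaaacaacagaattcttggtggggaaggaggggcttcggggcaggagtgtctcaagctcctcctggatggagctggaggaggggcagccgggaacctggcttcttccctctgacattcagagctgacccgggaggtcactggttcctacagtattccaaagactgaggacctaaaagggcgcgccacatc
Gpm6a: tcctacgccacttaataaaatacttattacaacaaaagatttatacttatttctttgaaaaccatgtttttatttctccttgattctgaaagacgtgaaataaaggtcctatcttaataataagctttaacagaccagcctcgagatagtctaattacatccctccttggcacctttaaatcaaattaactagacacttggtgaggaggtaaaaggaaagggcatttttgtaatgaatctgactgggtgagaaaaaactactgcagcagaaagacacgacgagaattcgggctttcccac

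The TEAD core was present on either strand in 2 of the 6 windows, 241 bases before the start of Upk3b and 196 bases before that of Lrrn4. It occurs in 14.7% of the 32851 promoter windows of this length. Neither GCGGGGGCG nor GCGTGGGCG, the 9-base sites bound by WT1 and EGR proteins (CGCCCCCGC and CGCCCACGC on the other strand), was in any of the 6 windows, and they occur in 2.91% and 0.612% of all windows. For Gpm6a the printed window is the one nearest to the counted transcript, whose start in the GENCODE annotation of the same build lies 115 bases away. The other Gpm6a window, 175409 bases from that start, holds 1 TEAD core. The windows differed widely in CpG dinucleotides, with 2 in Upk3b, 7 in Lrrn4, 6 in Gpm6a, 11 in Efemp1 and 50 each in Bnc1 and Aldh1a2, beside a median of 7 over all windows. A match is a description of these letters, and the 4 genes with a window that lay higher in ST14high include both the poorest and the richest in CpG.

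Msln encodes mesothelin, a lipid-anchored surface glycoprotein of mesothelium that is also a known tumour antigen. The counted transcript spans positions 25885558 to 25891272 of chromosome 17 in build mm9, on the minus strand, and the matching GENCODE transcript has 16 exons. In CPM, the count scaled to the size of the library, Msln was at 220.4, 36.7, 54.7 and 52.2 in ST14high replicates 1 to 4. It was at 9.46, 7.58, 17.4 and 6.07 CPM in ST14low replicates 1 to 4. Replicate 1 stood far above the other ST14high libraries, and the lowest ST14high library was still 2.10 times the highest ST14low library. The means were 91.0 ± 86.6 CPM (SD, n = 4) and 10.1 ± 5.06 CPM, with a fitted log2 fold change of 3.20 (SE 0.61), or 2.28 (SE 0.33) without ST14high replicate 1.

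Upk3b and Upk1b encode uroplakins, membrane proteins first known from the plaques of bladder epithelium. Upk3b (chromosome 5, 136514366 to 136520863 in mm9, plus strand), whose promoter is printed above, was at 302, 47.9, 71.1 and 62.0 CPM in ST14high replicates 1 to 4. In ST14low replicates 1 to 4 it was at 10.3, 9.12, 22.5 and 7.47 CPM. Within each population its libraries fell in the same order as those of Msln. The fitted log2 fold change was 3.33 (SE 0.65), and 2.33 (SE 0.34) without ST14high replicate 1. Upk1b, a tetraspanin (chromosome 16, 38773297 to 38800316 in mm9, minus strand), was lower, at 66.6, 8.99, 12.1 and 17.7 CPM in ST14high and at 1.41, 3.07, 4.78 and 1.31 CPM in ST14low. Its populations were separated by 1.88 times, from the lowest ST14high to the highest ST14low library. The bladder partners Upk2 and Upk3a had 0 counts in every library, and Upk1a averaged 0.783 CPM (ST14high) and 0.340 CPM (ST14low).

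Lrrn4 encodes a membrane protein with leucine-rich repeats. It was at 147, 17.7, 26.4 and 35.97 CPM in ST14high and at 3.84, 1.79, 7.87 and 1.91 CPM in ST14low. With all libraries this was the widest fitted difference of the 10, a log2 fold change of 3.99 (SE 0.78). Without ST14high replicate 1 it was 2.89 (SE 0.49), next to 2.90 for Bnc1. Its transcript lies on chromosome 2 at 132694252 to 132706598 in mm9. Of its relatives, Lrrn1 averaged 52.4 CPM (ST14high) and 55.3 CPM (ST14low), while Lrrn2 and Lrrn3 fell under the low-count filter.

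Wt1 and Bnc1 encode the transcription factors of the set. Wt1 is a zinc finger protein of mesothelium, kidney and gonad, and Bnc1 (basonuclin) is a zinc finger protein of keratinocytes, germ cells and mesothelium. Wt1 (chromosome 2, 104966686 to 105013771 in mm9, plus strand) was at 41.7, 8.12, 6.07 and 17.9 CPM in ST14high and at 1.71, 0.768, 2.16 and 1.72 CPM in ST14low. ST14high replicate 4, and not only replicate 1, was well above replicates 2 and 3. Its coefficient of variation in ST14high was 88.5%, and without replicate 1 it was 59.2%, the highest of the 10 genes in those 3 libraries. Bnc1 (chromosome 7, 89111548 to 89137185 in mm9, minus strand) was at 35.2, 7.20, 11.9 and 8.10 CPM in ST14high and at 1.66, 0.717, 2.01 and 0.688 CPM in ST14low. Of the 10 genes it had the widest gap between the lowest ST14high and the highest ST14low library, 3.59 times. The log2 fold changes were 3.56 (SE 0.65) for Wt1 and 3.67 (SE 0.64) for Bnc1, and 2.78 and 2.90 without ST14high replicate 1. Bnc1 rested on 13 to 39 counts per ST14low library and Wt1 on 14 to 55, so their low levels are coarse.

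Aldh1a2 encodes an enzyme that makes retinoic acid, a signal that mesothelium supplies to the tissue beneath it. Its transcript spans 71063596 to 71144050 of chromosome 9 in mm9, plus strand. It was at 42.5, 10.7, 17.2 and 13.1 CPM in ST14high and at 3.28, 5.84, 1.85 and 2.03 CPM in ST14low. ST14low replicate 2 was the highest of its population, unlike for Msln or Upk3b, and the ST14low replicate 3 value rests on 12 counts. The fitted log2 fold change was 2.66 (SE 0.53), and 2.05 (SE 0.40) without ST14high replicate 1.

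Nkain4 encodes a small membrane protein that binds the sodium pump. The files hold 2 transcripts at the same position (chromosome 2, 180669477 to 180689404 in mm9, minus strand), with 2882 and 2577 counts, and the first was used. It was at 46.5, 12.1, 17.7 and 18.1 CPM in ST14high and at 4.65, 8.61, 6.33 and 5.03 CPM in ST14low. The populations were separated by 1.41 times, from the lowest ST14high to the highest ST14low library, the narrowest gap of the 8. Its log2 fold change was 1.94 (SE 0.42), and 1.38 (SE 0.28) without ST14high replicate 1. The related Nkain1 and Nkain2 had means of 0.912 to 2.06 CPM in either population.

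**Figure D1:**
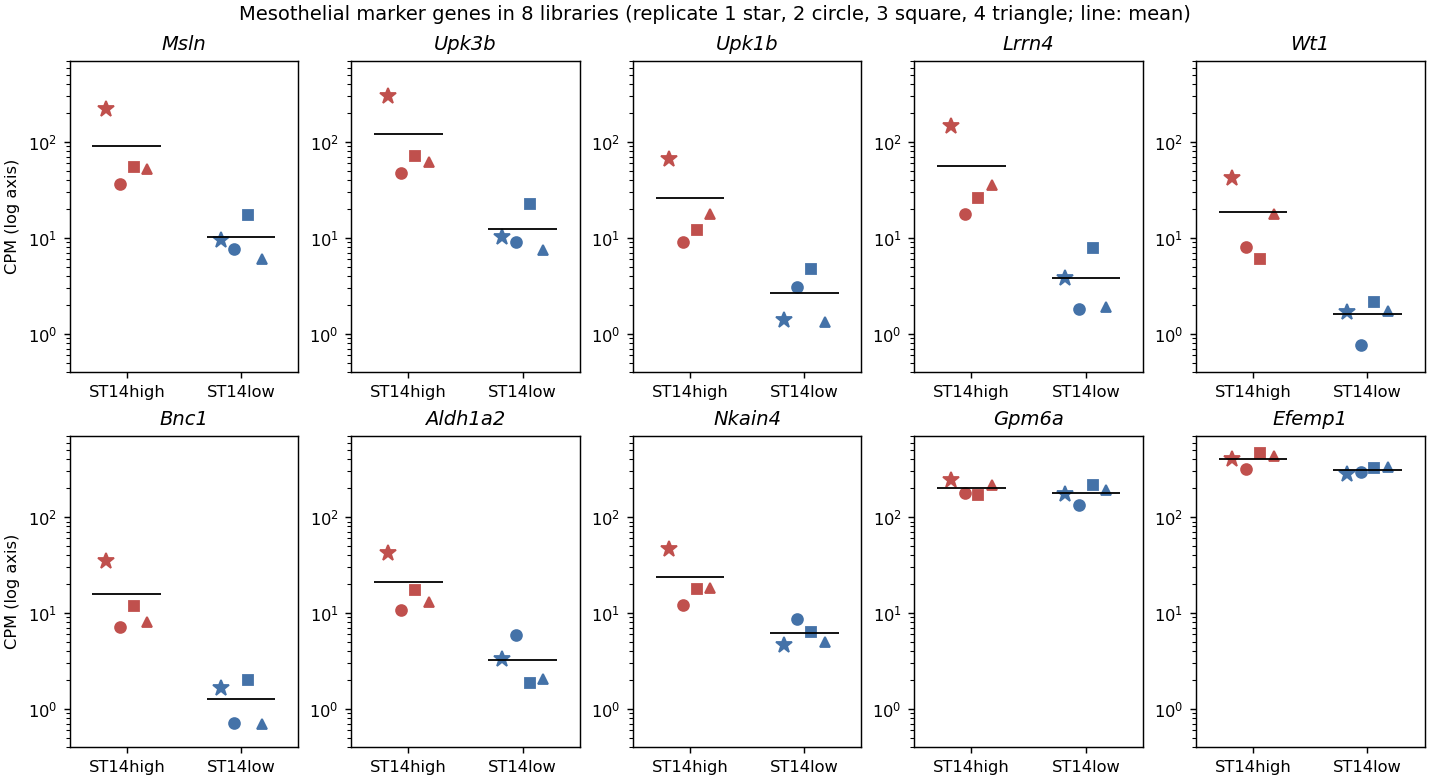
CPM on a log axis for each of the 10 genes in the 4 ST14high (red) and 4 ST14low (blue) libraries, with the mean as a line and 1 symbol per replicate number. In 8 panels all red points lie above all blue points with the star, replicate 1, highest, whereas the Gpm6a and Efemp1 panels overlap.

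Gpm6a and Efemp1 departed from this pattern. Gpm6a encodes a proteolipid glycoprotein of neurons that is also used as a surface marker of liver mesothelium, and it was at 243, 179, 171 and 216 CPM in ST14high replicates 1 to 4. In ST14low replicates 1 to 4 it was at 172, 133, 214 and 192 CPM. Each population held libraries above and below those of the other, and replicate 1 was only 1.29 times the mean of the other ST14high libraries, where that ratio was 2.91 to 5.52 for the 8 genes above. The means were 202 ± 33.7 and 178 ± 34.4 CPM (SD, n = 4 each), a log2 fold change of 0.18 (SE 0.18), or 0.08 without ST14high replicate 1. The counted transcript lies on chromosome 8 at 56040081 to 56146231 in mm9, plus strand, and held 37001 counts over the libraries. Its paralog Gpm6b averaged 64.7 CPM (ST14high) and 72.1 CPM (ST14low).

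Efemp1 encodes fibulin-3, a secreted protein of the extracellular matrix, and was the most abundant of the 10. It was at 407, 318, 462 and 432 CPM in ST14high and at 284, 299, 323 and 336 CPM in ST14low. Of the ST14high libraries 3 lay above all ST14low libraries, and replicate 2 lay within their range. Replicate 1 was 1.01 times the mean of the other ST14high libraries. The log2 fold change was 0.38 (SE 0.14), and 0.38 (SE 0.16) without ST14high replicate 1. The transcript lies on chromosome 11 at 28753205 to 28826743 in mm9, plus strand. The other fibulins, also matrix proteins, differed among themselves. Fbln1 averaged 26.4 CPM (ST14high) and 3.29 CPM (ST14low) and reached 79.2 CPM in ST14high replicate 1; the log2 fold change was 3.02 (SE 0.84), or 1.44 without that library. Fbln2 averaged 92.7 and 39.8 CPM (log2 fold change 1.21, or 0.45 without it), and Fbln5 24.3 and 6.40 CPM (log2 fold change 1.91, or 0.20 without it). Hmcn1 averaged 12.1 and 5.29 CPM (log2 fold change 1.21, or 0.51 without it), and Efemp2 71.3 CPM in each population. In edgeR 0 of the 10 tested relatives of the 10 genes, over all families, passed an adjusted p of 0.05, 3 were higher at an unadjusted p under 0.05 (Fbln1, Fbln2 and Fbln5), where 6.89% of all genes were, and DESeq2 called 1 higher, Fbln1, where it called 1.62% of all genes higher. DESeq2 called 0 of the relatives without ST14high replicate 1 or without ST14low replicate 3.

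**Figure D2:**
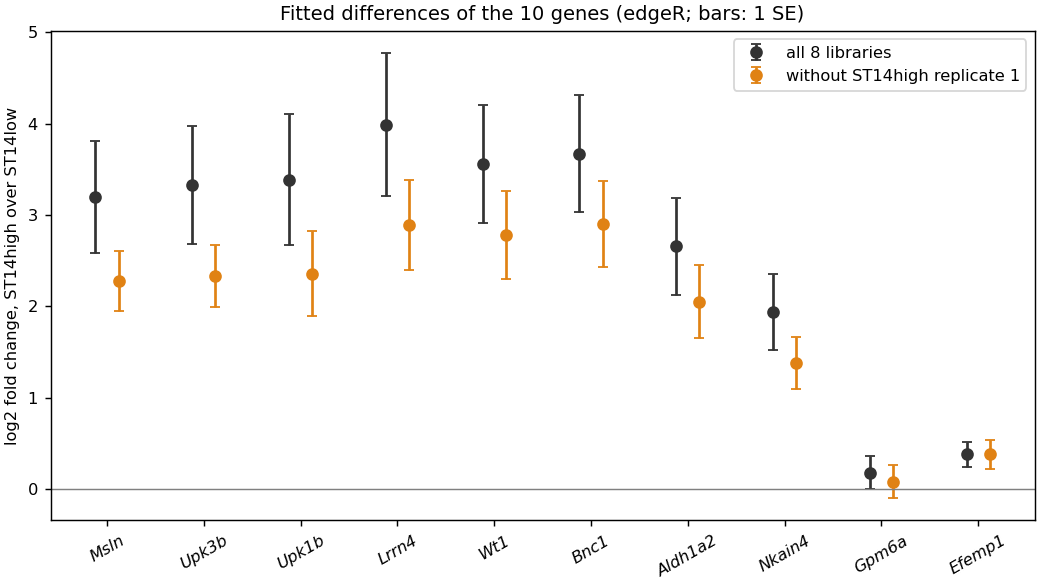
Log2 fold change of ST14high over ST14low for the 10 genes, fitted with edgeR on all 8 libraries (black) or without ST14high replicate 1 (orange), with bars of 1 SE. The 8 separated genes lie between 1.94 and 3.99 with all libraries and between 1.38 and 2.90 without replicate 1, and Gpm6a and Efemp1 lie at 0.18 and 0.38 with all libraries.

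The median log2 fold change of the 10 genes was 3.26, and 2.31 without ST14high replicate 1, where the median over all 13749 genes was 0.00. The 10 genes were not called by edgeR's quasi-likelihood test over all genes, which called 0% of genes at an adjusted p of 0.05. DESeq2 called 8 of the 10, all higher, where it called 1.62% of all genes higher. The 8 were those whose populations did not overlap, and they were called again in every DESeq2 fit that left out 1 library. Efemp1 was called as well without ST14high replicate 2. Nothing is read from these counts, since the contrast chose the genes. In RNA from sorted populations, a larger share of cells of a type and more RNA per cell cannot be told apart.

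Levels of different genes can be compared only per length, for which the RPKM that the authors deposited (reads per kilobase of transcript, scaled by library size) was used. In ST14low, Efemp1 had the highest RPKM, 192 ± 17.4 (SD, n = 4), followed by Gpm6a at 58.6 ± 12.1 and Nkain4 at 8.90 ± 2.42. Each of the first 2 was separated from the next gene in all 4 libraries. Upk3b at 6.88 ± 3.85 and Msln at 6.67 ± 3.35 followed, and their ranges overlapped each other and that of Nkain4. Aldh1a2, Upk1b and Lrrn4 had means of 1.86, 1.802 and 1.19 RPKM with overlapping ranges, and Wt1 and Bnc1 were lowest at 0.590 and 0.285 RPKM. In ST14high, Efemp1 stayed first at 245 ± 36.4 RPKM. Gpm6a at 64.8 ± 8.49, Upk3b at 63.3 ± 59.2 and Msln at 56.5 ± 49.9 RPKM then lay within each other's spread, and Upk3b exceeded Gpm6a in replicate 1, at 152 against 72.0 RPKM. In the other 3 libraries Gpm6a was above Upk3b. Nkain4 followed at 32.7 ± 19.2, Upk1b at 17.0 ± 16.3, Lrrn4 at 16.4 ± 16.5, Aldh1a2 at 11.4 ± 7.23, Wt1 at 6.50 ± 5.34 and Bnc1 at 3.34 ± 2.59 RPKM. Of the neighbours in this order, Efemp1 and Gpm6a alone had separate ranges, and Lrrn4 was above Aldh1a2 in only 2 of the 4 libraries. The levels of the genes other than Efemp1 and Gpm6a rest largely on ST14high replicate 1. Without it Upk3b averaged 33.7, Msln 31.7, Nkain4 23.3, Upk1b 8.90, Lrrn4 8.26, Aldh1a2 7.89, Wt1 4.01 and Bnc1 2.06 RPKM. Efemp1 and Gpm6a averaged 251 and 62.4 RPKM without it, so Gpm6a then lay well above Upk3b and Msln.

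The 8 separated genes kept different degrees of proportion to each other, which was described by dividing each gene's RPKM by that of Upk3b in the same library. Msln to Upk3b ran only from 0.863 to 1.09 over the 8 libraries, while Upk3b itself ran from 4.25 to 152 RPKM. Bnc1 to Upk3b ranged 2.10 times from lowest to highest, Upk1b 2.48 times, Lrrn4 2.93 times and Wt1 3.40 times. The Wt1 ratio was 0.193 and 0.153 in replicate 4 of ST14high and ST14low and at most 0.113 in the other libraries. Nkain4 and Aldh1a2 ranged further, 6.13 and 7.78 times, and both ratios were highest in ST14low replicate 2. For Nkain4 the ratio was 0.402 to 0.763 in ST14high and 0.732 to 2.46 in ST14low, so the populations overlapped only slightly. For Gpm6a and Efemp1 the ratios ranged 32.0 and 33.4 times and did not overlap between populations. Gpm6a and Efemp1 themselves changed little, so this separation restates that of Upk3b. The Gpm6a ratio was 0.474 to 2.20 in ST14high and 5.61 to 15.2 in ST14low. These ratios are descriptions over 8 libraries and carry no test.

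**Figure D3:**
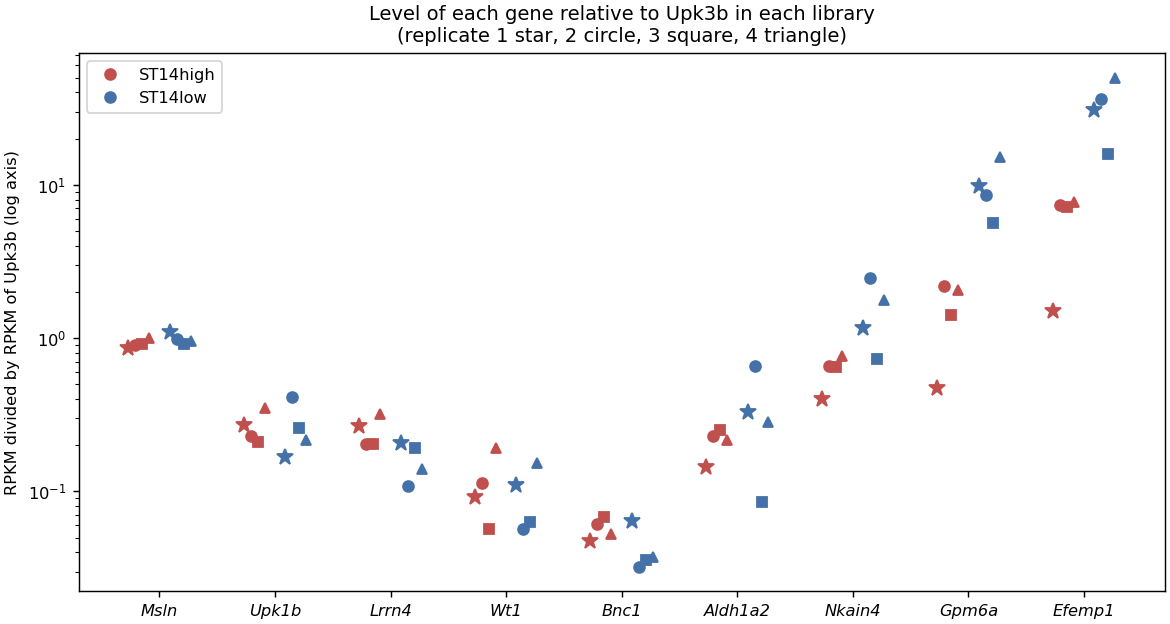
RPKM of each gene divided by RPKM of Upk3b in the same library, on a log axis, with ST14high in red, ST14low in blue and 1 symbol per replicate number. Msln stays between 0.863 and 1.09 in all 8 libraries. Gpm6a and Efemp1 spread 32.0 and 33.4 times and lie highest in ST14low, where Upk3b is lowest.

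Variation within each population was shared by many of the genes. ST14high replicate 1 held the highest value in its population for 9 of the 10 (all but Efemp1), and ST14high replicate 2 the lowest for 8 of the 10 (all but Wt1 and Gpm6a). In ST14low, replicate 3 was highest for 7 of the 10: Msln, Wt1, Upk3b, Upk1b, Bnc1, Gpm6a and Lrrn4. Aldh1a2 and Nkain4 were highest in ST14low replicate 2 and Efemp1 in ST14low replicate 4. ST14low replicate 3 is also the library of lowest depth. No share over all genes was set beside these counts, so they are a description of the 10 genes only.

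Genes of similar profile were sought by the root mean square difference of log2 CPM, centred on each gene's mean over the 8 libraries, from that of each of the 10 genes to those of the 13158 other genes tested with a mean of at least 1 CPM. The genes nearest to Msln were Upk3b (0.10), Igfbp6 (0.13), which encodes a binding protein of insulin-like growth factors, and Dmkn (0.26), which encodes the secreted epithelial protein dermokine. The same set was nearest to Upk3b, with Msln at 0.10, Igfbp6 at 0.19 and Dmkn at 0.26. Nearest to Upk1b were Igfbp6 (0.35), Upk3b (0.38) and the basal keratin gene Krt14 (0.39). In ST14low Krt14 averaged 0.219 CPM and Dmkn 0.356 CPM, so their profiles there rest on few reads. Nearest to Bnc1 were the adhesion receptor gene Gpr133 (0.32), Dmkn (0.34) and Msln (0.35). Nearest to Lrrn4 were Igfbp5 (0.29), Gpr133 (0.30) and the matrix proteoglycan gene Spock2 (0.38). These 5 genes held 2 to 4 others of the 10 among their 20 nearest. The 10 were chosen with this contrast known, and a shared difference between populations brings profiles together, so this is a description only.

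Wt1 had other neighbours: Tmem119 (0.29), Cdh11 (0.30), a cadherin of mesenchymal cells, and Mustn1 (0.32), a gene of muscle and skeleton. None of the 10 was among its 20 nearest, and its nearest of the 10, Msln at 0.58, ranked 43. In the other direction, Wt1 was among the 20 nearest to Lrrn4. Nkain4 lay nearest to the growth factor gene Fgf1 (0.15), to Vim (0.28), which encodes the intermediate filament vimentin, and to Cmah (0.30), and none of the 10 was among its 20 nearest. Aldh1a2 had the least similar neighbours, Matn4 (0.53), Tmem108 (0.55) and Nkain4 (0.56). Matn4 and Tmem108 averaged 0.622 and 0.512 CPM in ST14low, where their profiles rest on few reads. The 3 nearest to Gpm6a, Aldh6a1, Usp25 and Zswim6 at 0.06 to 0.07, and to Efemp1, Rbm4b, Cic and Fam189b at 0.09 to 0.10, were genes of little change between libraries. These small differences go with the narrow range of both profiles, 0.86 and 0.70 on the log2 scale from the lowest to the highest library, beside 3.30 to 6.30 for the other 8 genes. Gpm6a and Efemp1 were nearest to each other among the 10, at 0.26, yet ranked 1956 and 1428 in each other's order.

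Further genes listed for mesothelium were fitted with edgeR over all genes. The list was drawn up with earlier results of this contrast known, so its counts are no independent support for the 10 genes. Of 38 listed, 36 were in the files and 34 were tested. In edgeR 0 passed an adjusted p of 0.05, with a smallest adjusted p of 0.192. At an unadjusted p under 0.05 there were 23 higher in ST14high, where 6.89% of all genes were, and 0 lower, where 2.68% of all genes were. DESeq2 called 14 of the 32 to which it gave an adjusted p, all higher, where it called 1.62% of all genes higher. Of the 34, 18 lay higher in every ST14high library than in any ST14low library, where 4.09% of all genes did. The same number did without ST14high replicate 1, where 6.74% of all genes did. Above 0 lay 29 of the genes and below it 5, both with all libraries and without ST14high replicate 1. With all libraries, 6918 of all genes tested lay above 0 and 6831 below it. The list's median fold change on the log2 scale was 1.74, and 0.90 without that library.

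The 4 genes of highest mean level on that list, among them keratin genes that duct cells also express, lay close to equal. Clu (clusterin, a secreted chaperone) averaged 22700 CPM (ST14high) and 23150 CPM (ST14low), C3 (complement component 3) 3846 and 3358 CPM, and the keratin genes Krt18 1495 and 1566 CPM and Krt8 1004 and 1161 CPM. Their edgeR adjusted p-values were 0.977, 0.759, 0.951 and 0.867. Igfbp6, the nearest neighbour of Msln outside the 10, was at 225, 37.0, 48.6 and 61.7 CPM in ST14high and at 9.76, 9.02, 18.1 and 6.82 CPM in ST14low. Every ST14high library was above every ST14low library, with a log2 fold change of 3.12 (SE 0.60, edgeR adjusted p = 0.192), and 2.21 without ST14high replicate 1. Igfbp5 was at 1929, 253, 296 and 462 CPM in ST14high and at 41.4, 34.0, 144 and 34.0 CPM in ST14low (log2 fold change 3.55, SE 0.78, edgeR adjusted p = 0.197), and 2.43 without ST14high replicate 1.

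The following genes of the list were chosen after their values were seen. Bnc2, the paralog of Bnc1, was at 11.6, 1.19, 2.17 and 1.25 CPM in ST14high and at most 0.463 CPM in ST14low, with 0 counts in ST14low replicate 2. Pkhd1l1, which encodes a large membrane protein related to fibrocystin, was at 197, 27.1, 48.5 and 51.1 CPM in ST14high and at 3.11, 0.768, 12.2 and 1.91 CPM in ST14low (log2 fold change 4.34, SE 0.91, edgeR adjusted p = 0.192, and 3.42 without ST14high replicate 1). Rspo1, a secreted enhancer of Wnt signals, was at 47.0, 9.31, 15.0 and 16.7 CPM in ST14high and at 1.58, 0.615, 5.40 and 2.60 CPM in ST14low (log2 fold change 3.19, SE 0.70, edgeR adjusted p = 0.192, and 2.51 without that library). Like Gpm6a, the surface protein genes Alcam, Podxl and Cdh2 lay close to equal, with log2 fold changes of 0.01 (SE 0.23), -0.05 (SE 0.11) and -0.02 (SE 0.34). Calb2, which encodes the mesothelial marker calretinin, had 0 counts in every library.

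**Figure D4:**
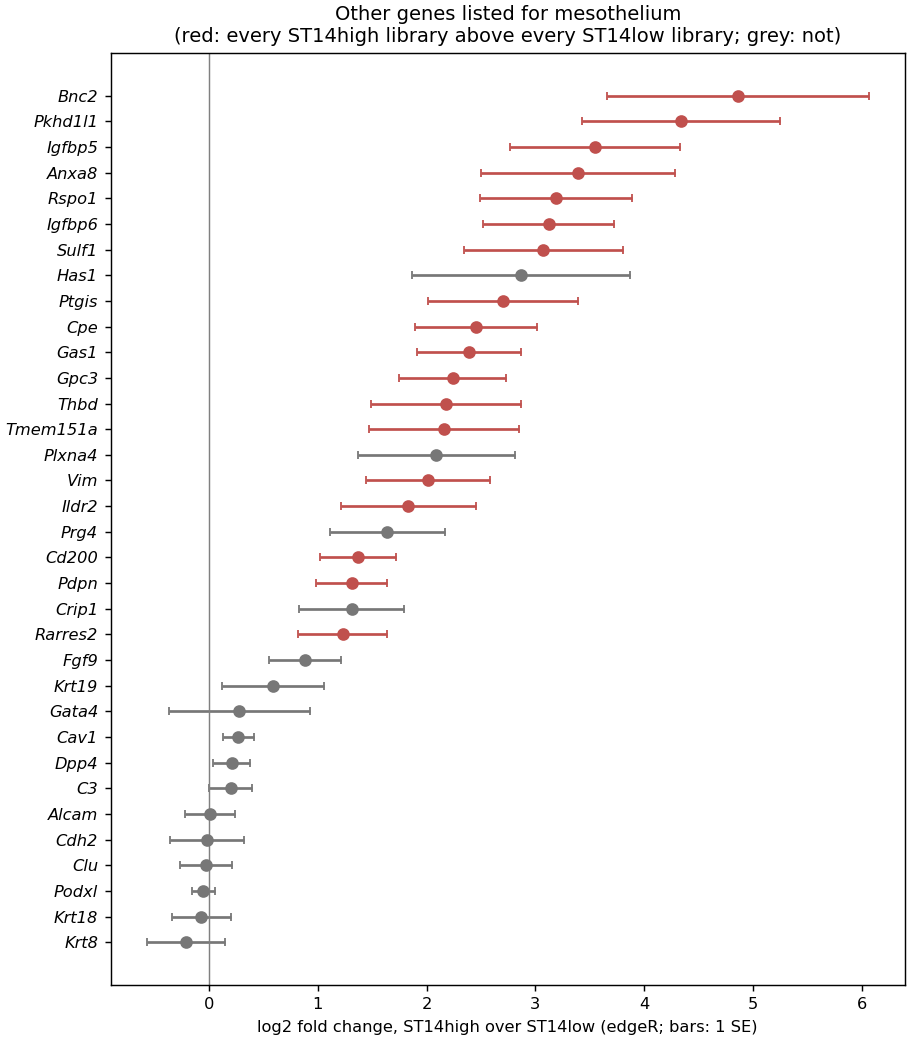
Log2 fold change of ST14high over ST14low (edgeR, bars of 1 SE) for the 34 tested genes listed for mesothelium other than the 10. Red marks the 18 genes in which every ST14high library lay above every ST14low library, and the lowest part of the plot holds genes near 0 such as Alcam, Podxl, Krt8 and Krt18.

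Genes of the retinoid pathway around Aldh1a2 lay on either side of 0. Of 19 listed, 15 were tested, 0 passed in edgeR, and DESeq2 called 0. At an unadjusted p under 0.05 there were 3 higher (Lrat, Rara and Rarg), beside 6.89% of all genes, and 0 lower. Their median log2 fold change was -0.12, with 6 above 0 and 9 below. Chosen after their values were seen, Lrat, an enzyme gene of retinol storage, had a log2 fold change of 1.11 (SE 0.44), and Cyp26a1 and Cyp26b1, whose enzymes break down retinoic acid, had -1.03 (SE 1.07) and -0.63 (SE 0.82). Stra6, which encodes a retinol transporter, was too low to be tested and averaged 0.966 CPM (ST14high) and 0.0874 CPM (ST14low) with no overlap. Of the most abundant genes, Aldh1a1, which encodes a related enzyme of retinoic acid synthesis, averaged 337 CPM (ST14high) and 365 CPM (ST14low; log2 fold change -0.12, SE 0.18, edgeR adjusted p = 0.842). Dhrs3, a retinal reductase gene, averaged 269 and 316 CPM, the retinoid receptor gene Rxra 157 and 182 CPM, and Rbp4, which encodes the retinol carrier of plasma, 82.4 and 107 CPM. On the log2 scale the fold changes were -0.23, -0.21 and -0.37, with edgeR adjusted p-values of 0.71, 0.618 and 0.649.

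Markers of other cell types were summed in each library to set them beside the 10 genes. All 10 duct cell markers were detected. Their sum was lowest in ST14high replicate 1, at 13050 CPM, and 19320 to 26120 CPM in the other 7 libraries. Of the duct cell markers 3 lay above 0 on the log2 scale and 7 below, with a median log2 fold change of -0.06. All 8 smooth muscle markers were detected and lay above 0 on the log2 scale, with sums of 225 to 1208 CPM in ST14high and 132 to 235 CPM in ST14low and a median log2 fold change of 3.51, or 2.57 without ST14high replicate 1. All 12 fibroblast markers lay above 0, with sums of 398 to 2901 CPM in ST14high and 164 to 337 CPM in ST14low. Their median was 1.85, or 0.46 without that library. Of 10 stellate cell markers 8 lay above 0, with sums of 348 to 536 CPM in ST14high and 278 to 531 CPM in ST14low. Of all 13749 genes tested, 6918 lay above 0.

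Pancreatic acinar markers, of which 11 of 12 were detected and Amy2a5 was at 0, reached a sum of 10700 CPM in ST14high replicate 1, of 1564 CPM in ST14high replicate 2, and of 4.94 to 121 CPM in the other 6 libraries. The 4 of them that were tested had a median log2 fold change of 6.38, or 3.82 without ST14high replicate 1. In ST14high replicates 3 and 4 the sums, 5.67 and 11.9 CPM, lay within the ST14low range of 4.94 to 121 CPM. Of the 4 genes 0 lay higher in every ST14high library than in any ST14low library. Endothelial markers, 10 of 10 detected, were highest in ST14high replicate 1, at a sum of 1284 CPM, and ST14low replicate 3, at 1147 CPM, and lowest in ST14high replicate 3, at 20.6 CPM. Of the endothelial markers 1 lay above 0 on the log2 scale and 9 below. Their median log2 fold change was -0.43, or -1.66 without ST14high replicate 1. Macrophage and dendritic cell markers, 11 of 11 in the files detected, summed to 242 to 340 CPM in ST14high and 348 to 889 CPM in ST14low, with the highest sum in ST14low replicate 3. Of the 10 tested, 1 lay above 0 and 9 below, with a median of -1.77. Lymphocyte markers reached 16.8 to 27.8 CPM in ST14high and 28.6 to 47.7 CPM in ST14low, hepatocyte markers 4896 to 12340 and 7773 to 14240 CPM, and neuron and glia markers 32.6 to 49.0 and 23.6 to 44.2 CPM. All 7 lymphocyte markers tested and all 10 hepatocyte markers lay below 0, with medians of -1.73 and -0.46. Of the 5 neuron and glia markers tested 2 lay above 0 and 3 below (median -0.04). The contribution of these cell types to the levels of the 10 genes was not tested.

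**Figure D5:**
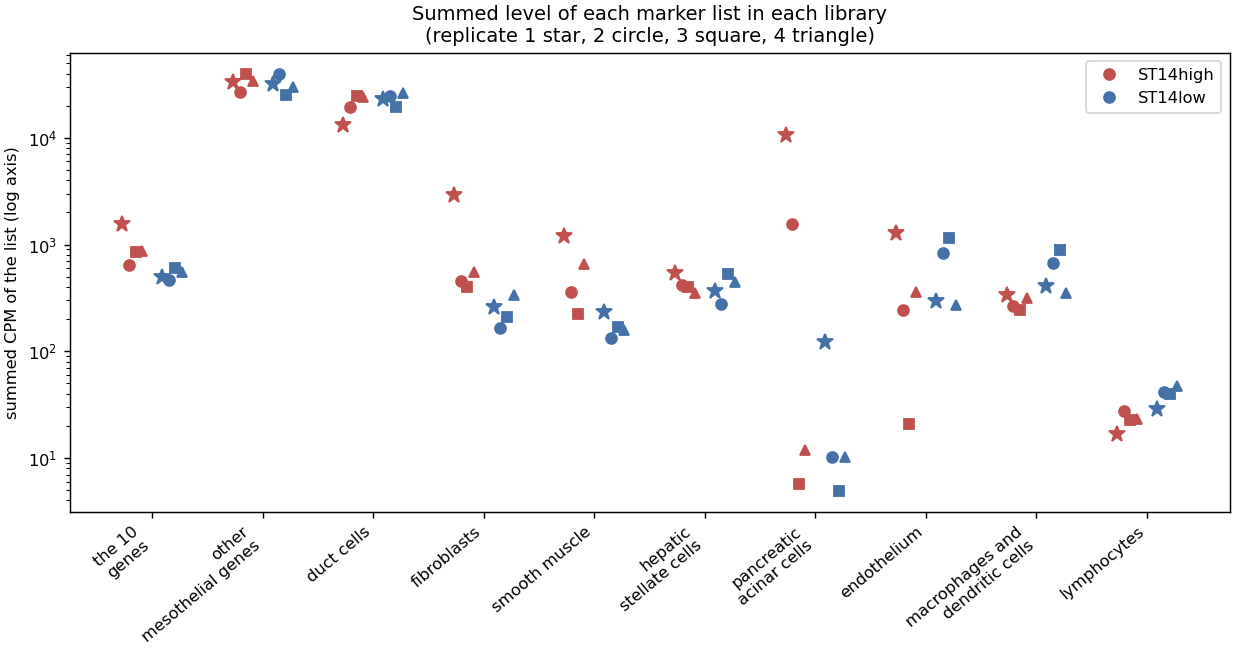
Summed CPM of the 10 genes, of the other genes listed for mesothelium and of marker lists of 8 other cell types in each library, on a log axis, with ST14high in red, ST14low in blue and 1 symbol per replicate number. Replicate 1 of ST14high (red star) is highest for the 10 genes, at 1552 CPM, and for fibroblast, smooth muscle and acinar lists. It is also highest for endothelium, at 1284 CPM beside 1147 CPM in ST14low replicate 3. For stellate cells it is highest by little, at 536 CPM beside 531 CPM in ST14low replicate 3. It is lowest for duct cells, at 13050 CPM, and for lymphocytes, at 16.8 CPM.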

How the data were processed

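RNA sequencing of 4 ST14high and 4 ST14low libraries was analysed from the deposited tables. Per the labels' protocols, RNA was prepared in TRIzol and an Illumina TruSeq kit was used. CASAVA 1.8.2, Bowtie 1.0.0 and build mm9 are named, without a role, per the submitters' processing notes. Counting program, annotation release and strand setting: not given in the sources used here. Each of 26005 RefSeq transcripts has a raw count and an RPKM, per the file headers. The authors deposited each count as a whole number with no scaling. The RPKM the authors deposited beside it divides by transcript length and by reads in the library.

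The transcript with the most counts was kept for each of 20377 symbols. No other gene's transcript in the files overlapped the 10 genes. Counts were fitted with edgeR 4.0.16 (R 4.3.3): TMM factors, filterByExpr, the quasi-likelihood test with population as the only term, and Benjamini-Hochberg adjustment over 13749 genes. SE is the log2 fold change divided by the root of the F statistic. The common coefficient of biological variation was 38.4%. DESeq2 1.42.0 and limma 3.58.1 served as alternatives, beside other factors, filters and transcripts, a block for the replicate number, and fits without each library. The edgeR procedure was tested on simulated data, whose outcome is not given here. The simulation held no shift shared by many genes of a library, so it cannot vouch for the calls made here. CPM uses TMM-scaled library sizes. Log2 CPM for profile comparison used a prior count of 2. Tables and plots used matplotlib 3.10.9, numpy 2.4.6 and pandas 2.3.3 under Python 3.11.15.

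The 10 genes and all lists were chosen with earlier results of these data known. Genes named were the 10, the 3 nearest in profile to each, relatives averaging at least 1 CPM, and the 4 most abundant genes of each list when fewer than 2 passed. Others are said to be chosen after their values were seen or are named as a small set of calls or as undetected genes. Upk1a, under 1 CPM, and Lrrn2 and Lrrn3, under the low-count filter, are named as relatives of low level. Promoters came from RefSeq tables of GRCm38.p6 and were not converted to mm9. 1 gene of the lists is not reported here.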

Additional observations from a re-analysis of the deposited data

Results flagged for a closer look

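For each of 27 named genes, the highest and lowest of the 4 libraries of each population were checked for a gap to the next library that takes up a larger part of the population's range in CPM than Dixon's critical value for 4 values. Chance flags about 1 in 20 such groups, 54 groups were checked, and genes of shared profile are not independent of each other. The comparison without ST14high replicate 1 was set before this check, so the flags of that library are a description. ST14high replicate 1 stood far above the other ST14high libraries for 5 of the 10 genes: Msln at 220.4 CPM, Upk3b at 302 CPM, Upk1b at 66.6 CPM, Bnc1 at 35.2 CPM and Lrrn4 at 147 CPM. It also stood apart for 3 relatives of Efemp1, at 79.2 CPM for Fbln1, 207 CPM for Fbln2 and 74.9 CPM for Fbln5. For Gpm6b, the paralog of Gpm6a, it was the low library instead, at 46.7 CPM. Rbp4 was high in ST14low replicate 2, at 150.8 CPM. Wt1, Aldh1a2, Nkain4, Gpm6a and Efemp1 had no library that far from the others.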

How the results depend on the processing

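With ST14high replicate 1 left out, the median log2 fold change of the 10 genes was 2.31 in edgeR and 2.27 in DESeq2; leaving out each library gave 2.31 to 3.63. In the other settings it was 2.57 (limma's voom) to 3.27. Gpm6a, at 0.18, reached -0.01 in limma's voom, and the other 9 genes kept a fold change above 0 in all 17 planned settings. Wt1 was lowest at 2.48 in limma's voom. Over all genes edgeR called 0 (947 higher and 368 lower at an unadjusted p under 0.05), and DESeq2 called 234. DESeq2 fits that left out 1 library were added after seeing the data. They called 283, 262, 421 and 216 genes without ST14high replicates 1 to 4, and 161, 178, 320 and 163 without ST14low replicates 1 to 4. Of the other mesothelial genes DESeq2 called 14, and 12, 18, 16, 12, 10, 12, 14 and 11 in those fits, in the same order, with Thbd lost in 6 of the 8. Of the relatives it called 1, and 2 when ST14high replicate 3 was left out, 0 when ST14high replicate 1 or ST14low replicate 3 was, and 1 in the other fits. The cause was not tested. Retinoid pathway genes had 0 calls in each setting. Same-numbered libraries did not deviate together (correlations of -0.125 to 0.0522). These correlations cannot show whether the numbers pair the samples, since an effect shared by a pair may be small beside other variation. With the replicate block edgeR called 2 genes, Acta2 and Myh11. ST14low replicate 3 limits Wt1, Bnc1 and Aldh1a2, with 12 to 14 counts each.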
